A study of Mus musculus with 29 samples.

Results

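The epithelial junction and keratin genes described here are the cadherin gene Cdh1, the adhesion gene Epcam, the claudin genes Cldn3, Cldn4, Cldn6 and Cldn7, and the keratin genes Krt8, Krt18 and Krt19. These 9 genes were picked by name, as every probe on the array whose symbol is one of them, and all 9 were among the 16324 genes tested of 20952 genes named on the array. They are read by 10 probes, with 2 for Cldn4. The study measured RNA from cultured mouse cells on 29 single-colour Agilent arrays in 9 groups and concerned the conversion of naive embryonic stem cells into endoderm cultures that can be passaged on. Diff are cells of the double reporter line HRHnG differentiated over 7 to 8 days with Activin, CHIRON and LIF. Mid and Late are the same line passaged on as nEnd in nEnd medium, at passages 7 to 10 and 14 to 15, and their starting cells are ESC, HRHnG stem cells in 2i with LIF. XEN are an extraembryonic endoderm line, Xen, in its standard medium. These 5 groups had 3 arrays each and form the first array set. In the second set, ADE are epiblast stem cells of the line HRHNG differentiated for 4 days (4 arrays) and EpiSC are their undifferentiated stable culture (3 arrays), itself made from embryonic stem cells. NACL are stem cells adapted for at least 3 passages to N2B27 with Activin, CHIRON and LIF (4 arrays, lines HVMC, HVMC, E14 and E14-NanogGFP), set against 2iL, cultures adapted to 2i with LIF, 1 each from HVMC, E14 and E14-NanogGFP (3 arrays). Only for nEnd do the labels state that replicates were separate differentiations, so elsewhere p-values measure the spread between these samples, which may be technical.

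Epithelial cells are held together by adherens junctions, in which E-cadherin, the product of Cdh1, binds its like on the next cell, and by tight junctions, whose strands are built of claudins and seal the space between cells. Epcam is a surface glycoprotein that stabilises claudins, and Krt8 pairs with Krt18 or Krt19 into the intermediate filaments of simple epithelia. Mouse embryonic stem cells adhere to each other through E-cadherin, while XEN lines in culture are known to resemble parietal endoderm, a migratory endoderm with mesenchymal features. Zeb1, Zeb2 and Snai1 are repressors that bind the letters CACCTG in promoters of such genes.

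RefSeq promoter windows of GRCm38.p6, each running from 250 bases before to 50 bases after a gene's start, were at hand for 7 of the 9 genes in 8 windows (2 for Cldn7). CACCTG on either strand stood in 7 of the 8 windows, against 20.2% of the 32851 windows searched. All 7 genes had it in at least 1 window, and only the upstream window of Cldn7 lacked it. TGANTCA, the letters of AP-1 sites, stood only in the Cldn4 window, with 2 matches, against 7.81% of all windows. The letters AGATAA stood only in the Krt8 window, against 11.2% of all windows. Cldn3 and Cldn4 start 39.3 kb apart on chromosome 5, and Krt18 and Krt8 start 23.9 kb apart on chromosome 15. Shown are 4 windows of genes whose patterns over the groups differ, the downstream Cldn7 window at chr11:69965171-69965470 on the plus strand, Epcam at chr17:87635729-87636028 on the plus strand, Cldn4 at chr5:134946885-134947184 on the minus strand, and Krt18 at chr15:102027966-102028265 on the plus strand, each 5′ to 3′ with CACCTG or its reverse complement in capitals.
Cldn7: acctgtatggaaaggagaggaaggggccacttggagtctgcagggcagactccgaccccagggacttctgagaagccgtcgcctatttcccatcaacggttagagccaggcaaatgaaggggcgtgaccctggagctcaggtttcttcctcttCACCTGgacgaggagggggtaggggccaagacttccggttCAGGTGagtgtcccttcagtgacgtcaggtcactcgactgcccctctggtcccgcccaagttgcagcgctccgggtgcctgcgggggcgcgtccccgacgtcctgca
Epcam: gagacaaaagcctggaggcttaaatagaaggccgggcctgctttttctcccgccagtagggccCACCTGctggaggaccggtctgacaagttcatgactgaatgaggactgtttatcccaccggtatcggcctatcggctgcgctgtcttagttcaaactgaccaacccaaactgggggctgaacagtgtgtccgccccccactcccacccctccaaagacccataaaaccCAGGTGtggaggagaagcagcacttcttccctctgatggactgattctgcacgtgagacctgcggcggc
Cldn4: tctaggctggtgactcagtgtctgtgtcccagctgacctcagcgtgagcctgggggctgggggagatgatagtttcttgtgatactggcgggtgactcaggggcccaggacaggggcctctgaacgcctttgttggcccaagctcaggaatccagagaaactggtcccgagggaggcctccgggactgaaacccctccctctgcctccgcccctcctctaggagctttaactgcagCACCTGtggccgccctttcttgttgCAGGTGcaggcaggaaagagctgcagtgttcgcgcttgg
Krt18: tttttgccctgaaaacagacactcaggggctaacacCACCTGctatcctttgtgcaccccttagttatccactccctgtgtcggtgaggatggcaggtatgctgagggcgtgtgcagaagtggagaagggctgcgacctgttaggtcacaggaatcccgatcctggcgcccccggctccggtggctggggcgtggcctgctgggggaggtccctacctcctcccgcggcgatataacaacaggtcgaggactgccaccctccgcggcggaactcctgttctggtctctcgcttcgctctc
A match is a run of letters and was not tested as a binding site.

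Each value below is the log2 of the array's processed intensity minus the 75th percentile of all non-control spots on that array, so 0 is the signal that 75% of spots fall under. The 75th percentile lay between 152.2 and 366.5 intensity units, and 49.2% to 79.7% of probes were well above background. Among the spots kept after irregular ones were left out, none was saturated. Precision is limited by how many arrays a group has. The share of all genes whose groups do not overlap is not given here, so lack of overlap below only describes the arrays. Arrays of a group correlated with each other at 0.956 to 0.988 over the 16324 genes tested. All 6 primitive endoderm genes listed were above background on every Diff, Mid, Late, XEN and ADE array. Of these genes, 1 to 2 were above background on ESC arrays, 3 to 4 on 2iL, 3 to 6 on NACL and 5 on EpiSC arrays. Of 6 definitive endoderm genes listed, 6 were above background on ADE and EpiSC arrays, 4 to 6 on Diff, 4 on Mid and Late and 3 on XEN arrays. Foxa2 and Sox17, both on that list, were above background on every Diff, Mid, Late and XEN array. Cer1, another gene of that list, was above background on all 4 ADE and all 3 EpiSC arrays, on 1 of 3 Diff arrays and on no Mid, Late or XEN array. Since each array holds the RNA of a whole culture, fewer cells of a type and less RNA per cell cannot be told apart. Levels set across the 2 array sets are a description, since scans and software versions differed between them.

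**Figure D1:**
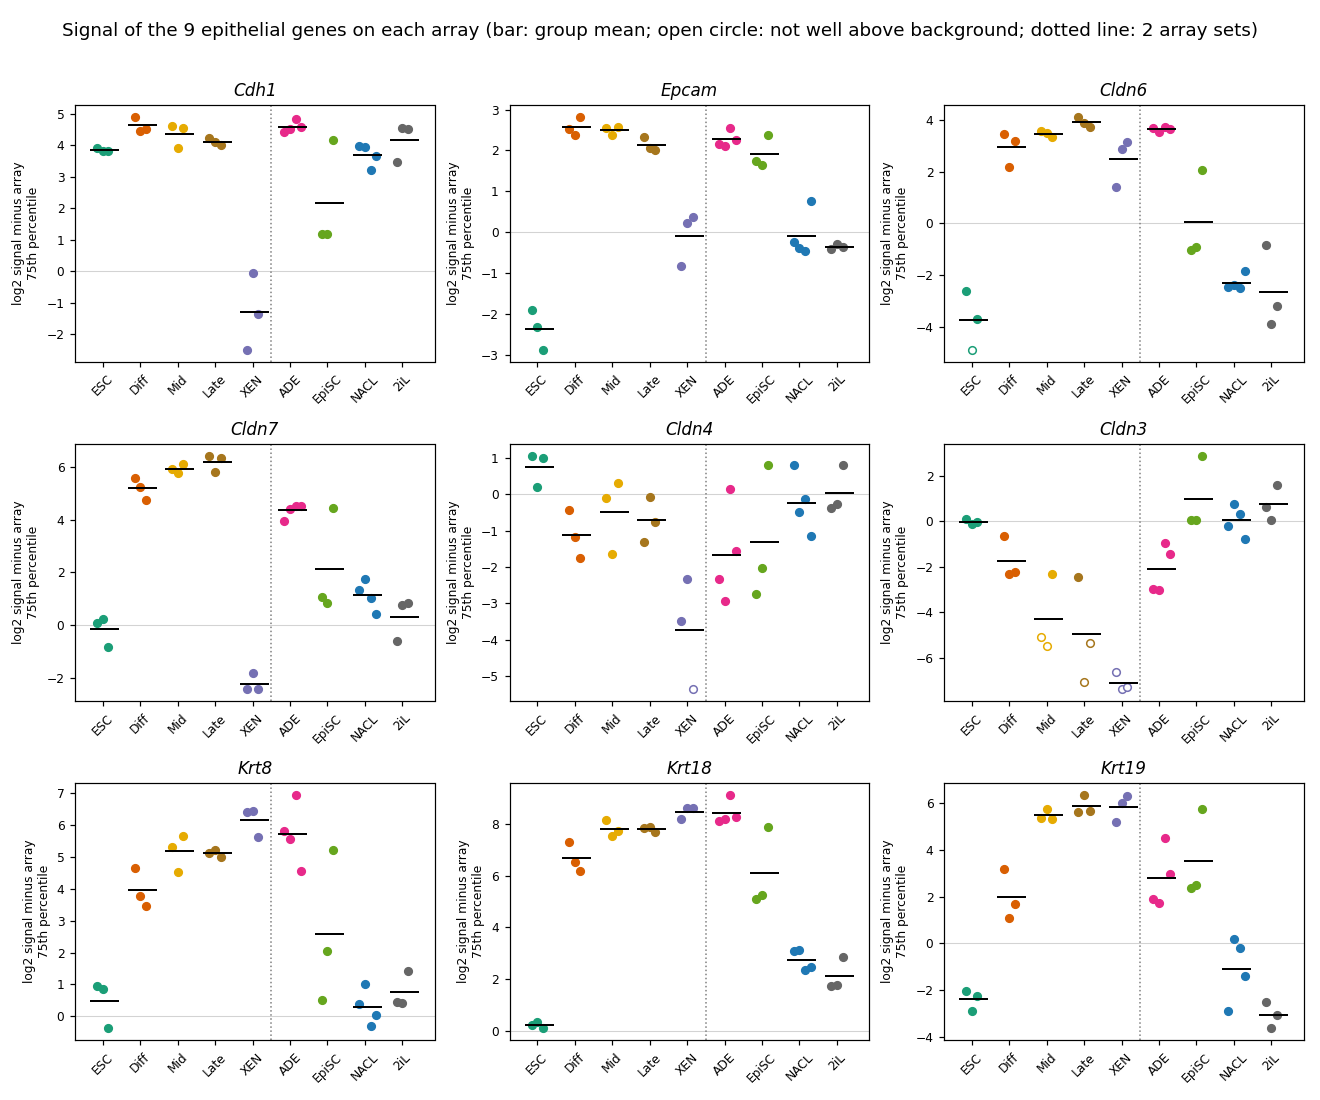
Log2 signal relative to the array's 75th percentile (vertical axes) of the 9 genes on each of the 29 arrays, by group (horizontal axes), with a bar at the group mean, open circles for spots not well above background and a dotted line between the array sets. Cdh1 lies at 3.81 or above on every ESC, Diff, Mid and Late array and at or below -0.04 in XEN, while Krt18 lies at 6.16 or above in Diff, Mid, Late and XEN and at or below 0.35 in ESC.

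The genes fell into distinct patterns over the groups. Cdh1 averaged between 3.70 and 4.63 in 7 of the 9 groups, with neighbouring ranges that overlapped except between Late and ESC, and stood lower in EpiSC (2.18 ± 1.73, SD, n = 3) and in XEN (-1.30 ± 1.23, SD, n = 3). Cldn7 spanned 8.42 between its highest mean, 6.18 in Late, and its lowest, -2.24 in XEN. Krt19 spanned 8.94, from 5.89 in Late down to -3.05 in 2iL. Krt18 and Krt8 were highest in XEN, at 8.47 ± 0.24 and 6.16 ± 0.46 (SD, n = 3), where their ranges overlapped those of ADE. Epcam was highest in Diff at 2.58 ± 0.23 (SD, n = 3), with ranges that overlapped through Mid, ADE, Late and EpiSC in that order. Cldn3 and Cldn4 ran the other way, with Cldn3 highest in EpiSC (0.98 ± 1.63, SD, n = 3) and Cldn4 highest in ESC (0.76 ± 0.47, SD, n = 3), and both lowest in XEN. Cldn3 was above background on every array of 6 groups, on 1 of 3 Mid, 1 of 3 Late and 0 of 3 XEN arrays.

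Differentiation of naive cells for 7 to 8 days answered which epithelial genes came on with the change to endoderm. In Diff, 6 of the 9 genes rose over ESC and none fell, against 43.3% of all genes called and 22.5% called higher, and the median difference of the 9 was 4.37, against -0.091 over all genes. Cldn7 read 5.59, 5.24 and 4.73 on the Diff arrays, against 0.08, 0.24 and -0.82 on the ESC arrays, a rise of 5.35 ± 0.60 (SE, adjusted p = 1.9e-07). Cldn6, a claudin of embryonic epithelia, read 3.45, 2.19 and 3.19 in Diff, against -2.60, -4.89 and -3.68 in ESC, where 2 of 3 arrays were above background, and rose by 6.67 ± 0.71 (adjusted p = 8e-08). Epcam read 2.52, 2.39 and 2.83 in Diff, against -1.90, -2.32 and -2.89 in ESC, and rose by 4.95 ± 0.31 (adjusted p = 2e-11). In all 3 genes every Diff array lay above every ESC array by more than the spread within either group.

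The keratins rose with them. Krt18 read 7.30, 6.54 and 6.16 in Diff, against 0.22, 0.35 and 0.10 in ESC, a difference of 6.44 ± 0.49 or 87.1-fold (adjusted p = 4.5e-10). Its partner Krt8 read 4.67, 3.78 and 3.47 in Diff, against 0.96, 0.87 and -0.38 in ESC, and rose by 3.49 ± 0.75 (adjusted p = 0.00057). Krt19 read 3.19, 1.08 and 1.67 in Diff, against -2.02, -2.89 and -2.25 in ESC, and rose by 4.37 ± 0.82 (adjusted p = 0.00013). For all 3 keratins the first Diff array was the highest of its group, and the groups did not overlap.

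Cdh1, Cldn3 and Cldn4 did not pass the test. Cdh1 read 4.91, 4.46 and 4.53 in Diff, against 3.92, 3.81 and 3.81 in ESC, a difference of 0.78 ± 0.57 (adjusted p = 0.28). Cldn3 read -0.67, -2.33 and -2.23 in Diff, against 0.09, -0.11 and -0.04 in ESC (difference -1.72 ± 0.95, adjusted p = 0.15), and Cldn4 read -0.44, -1.18 and -1.76 in Diff, against 1.06, 0.21 and 1.00 in ESC (difference -1.88 ± 0.85, adjusted p = 0.077). Groups did not overlap for any of the 3, with Cdh1 higher and both claudins lower in Diff, which without a share of all genes is not read as a change. When the 2 groups were fitted alone, with their own narrower spread, all 3 passed (adjusted p = 0.016 for Cdh1, 0.022 for Cldn3 and 0.01 for Cldn4). With a replicate block all 3 passed as well (adjusted p = 0.036, 0.024 and 0.016 in that order). Cldn3 and Cldn4 also passed as lower with normexp (adjusted p = 0.044 and 0.027) and in the series matrix (adjusted p = 0.034 and 0.027). On the first scan day only, none of the 3 passed (adjusted p = 0.45 for Cdh1, 0.34 for Cldn3 and 0.29 for Cldn4).

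Related genes were counted in Diff against ESC beside the 43.3% of all genes called and 22.5% called higher. Of 20 tight junction genes tested, 13 rose and 0 fell, with a median difference of 0.96: Patj, a polarity scaffold, rose by 6.64 ± 0.52 (adjusted p = 7.6e-10) and Cgn, the plaque protein cingulin, by 5.27 ± 0.49 (adjusted p = 1.2e-08). Of 8 desmosome and plakin genes, 5 rose and 0 fell, among them Dsp, desmoplakin, by 2.09 ± 0.56 (adjusted p = 0.0038). The desmosomal cadherin Dsc2 averaged 0.58 in Diff, against -6.33 in ESC, where no array was above background, and was at least 42.5-fold higher (adjusted p = 3.3e-09). Of 10 adherens junction genes tested, 3 rose and 0 fell, with a median difference of 0.12, including Nectin2 at 1.81 ± 0.21 (adjusted p = 3.5e-07). Of 10 other keratins 0 rose and 1 fell, Krt10 by -0.85 ± 0.27 (adjusted p = 0.014).

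Of 13 epithelial regulators tested, 7 rose and 2 fell in Diff over ESC, against 22.5% of all genes called higher. Esrp1, which directs epithelial splicing, rose by 2.85 ± 0.47 in Diff over ESC (adjusted p = 3.1e-05) and Ovol2, a repressor of Zeb1, by 1.32 ± 0.21 (adjusted p = 2.4e-05). Grhl2, an activator of junction genes, had a difference of -0.59 ± 0.65 (adjusted p = 0.49), and its relative Grhl3 fell by 2.88 (adjusted p = 2.1e-08). Zeb1 fell: it read -5.36, -3.14 and -1.57 in Diff, where 2 of 3 arrays were above background, against 1.1, 1.17 and 1.34 in ESC (difference -4.56 ± 0.60, adjusted p = 1.6e-06). The repressor Snai1 rose by 4.10 ± 0.51 (adjusted p = 7e-07). Zeb2 was above background on no Diff or ESC array.

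**Figure D2:**
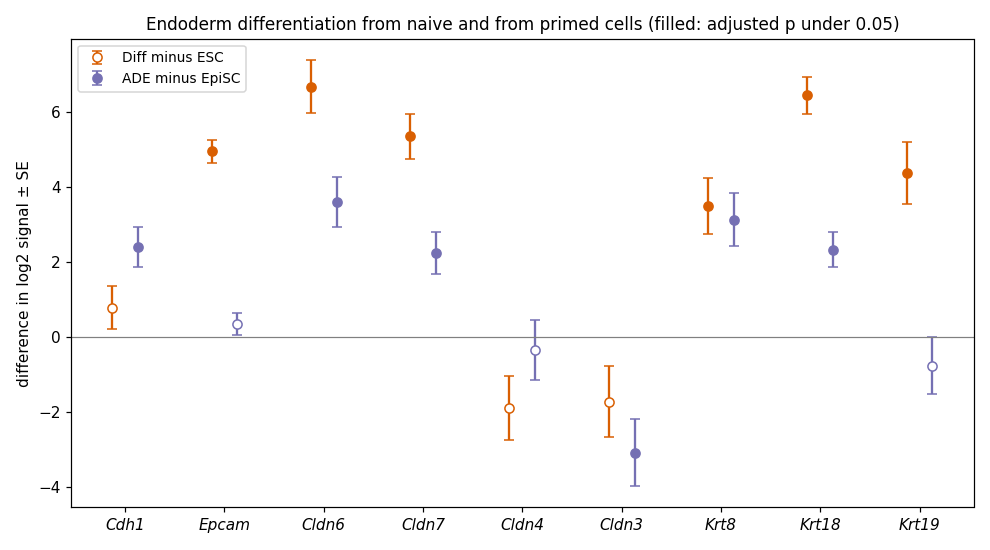
Difference in log2 signal with its standard error (vertical axis) for the 9 genes (horizontal axis), Diff minus ESC in orange and ADE minus EpiSC in violet, filled where the adjusted p is under 0.05. Krt19 lies at 4.37 for Diff minus ESC and at -0.76 for ADE minus EpiSC, and Krt8 lies at 3.49 and 3.13.

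In Mid against Diff, 2 of the 9 genes passed, Krt19 higher and Cldn3 lower, against 28.9% of all genes called. Krt19 read 5.38, 5.73 and 5.34 in Mid, against 3.19, 1.08 and 1.67 in Diff, and rose by 3.50 ± 0.82 (adjusted p = 0.0024), with no overlap. Cldn3 read -5.09, -5.49 and -2.33 in Mid, where 1 of 3 arrays was above background, against -0.67, -2.33 and -2.23 in Diff (difference -2.56 ± 0.95, adjusted p = 0.045). That call was lost with normexp (adjusted p = 0.29), with no filter (adjusted p = 0.06), in the series matrix (adjusted p = 0.14), with the groups fitted alone (adjusted p = 0.1), with a replicate block (adjusted p = 0.13), and without Diff 1, Diff 2, Diff 3, Mid 1 or Mid 2, with differences between -1.97 and -2.85 there. Krt18 differed by 1.14 ± 0.49 (adjusted p = 0.085) and Cldn7 by 0.74 ± 0.60 (adjusted p = 0.40). Krt18 passed with quantile normalization (1.64, adjusted p = 0.01), in the series matrix (1.61, adjusted p = 0.0087) and without Diff 1 (1.46, adjusted p = 0.044). Neither gene overlapped between the groups, again without a share of all genes beside it. Zeb1 fell by 2.56 (SE 0.60, adjusted p = 0.0025), with 1 of 3 Mid and 2 of 3 Diff arrays above background. Grhl2 fell by 2.87 (SE 0.65, adjusted p = 0.0018).

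Between Late and Mid passage, 0 of the 9 genes passed limma's adjusted test, and 0 had an unadjusted p under 0.05, against 7% of all genes called. Replicate numbers were taken to pair the Mid and Late cultures. With that pairing as a block 0 of the 9 genes and 0 of all genes passed, with 3487 of all genes at an unadjusted p under 0.05. Differences ran between -0.65 ± 0.95 for Cldn3 and 0.44 ± 0.71 for Cldn6. Krt18 held the closest values, with 7.82, 7.87 and 7.67 in Late, against 8.16, 7.53 and 7.73 in Mid.

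Set against the starting cells, nEnd (Mid and Late with equal weight) was higher in 6 of the 9 genes and lower in 1, against 53.6% of all genes called and 27.4% called higher, with a median difference of 4.69, against -0.083 over all genes. Lowest, median and highest signals of Krt19 over the 6 nEnd arrays were 5.34, 5.65 and 6.35, against -2.89, -2.25 and -2.02 on the ESC arrays, a rise of 8.07 ± 0.71 or 269-fold (adjusted p = 1.4e-09). Krt18 rose by 7.58 ± 0.42, Cldn6 by 7.40 ± 0.61, Cldn7 by 6.22 ± 0.52, Epcam by 4.69 ± 0.27 and Krt8 by 4.67 ± 0.65, with adjusted p no higher than 1.8e-06. Cldn3 was lower by -4.60 ± 0.82 (adjusted p = 4.5e-05), with 2 of 6 nEnd arrays above background. Cdh1 differed by 0.38 ± 0.49 (adjusted p = 0.54) and Cldn4 by -1.35 ± 0.73 (adjusted p = 0.13), with arrays that overlapped, and Cldn4 passed as lower with normexp (adjusted p = 0.049), in the series matrix (adjusted p = 0.031) and with the groups fitted alone (adjusted p = 0.032). Mid and Late arrays of one number were taken to come from the same set of differentiations, in which case the 6 nEnd arrays are not independent. With the number as a replicate block Cldn4 passed as well (adjusted p = 0.042).

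XEN cells were higher than ESC in the 3 keratins, Cldn6 and Epcam and lower in Cdh1, Cldn3, Cldn4 and Cldn7. All 9 genes passed in this comparison, 5 higher and 4 lower, against 51.8% of all genes called, 29.2% higher and 22.6% lower. Krt18 read 8.19, 8.62 and 8.59 in XEN, against 0.22, 0.35 and 0.10 in ESC, and rose by 8.24 ± 0.49 (adjusted p = 2.9e-12). Krt19 rose by 8.21 ± 0.82, Cldn6 by 6.19 ± 0.71 and Krt8 by 5.68 ± 0.75, with adjusted p no higher than 9.5e-07, and Epcam rose by 2.29 ± 0.31 (adjusted p = 1.3e-06).

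The 4 genes that fell in XEN were Cdh1 and 3 claudins. Cdh1 read -2.50, -0.04 and -1.35 in XEN, against 3.92, 3.81 and 3.81 in ESC, and fell by 5.15 (SE 0.57, adjusted p = 6.6e-08). Cldn4 read -3.47, -2.34 and -5.36 in XEN, where 2 of 3 arrays were above background, against 1.06, 0.21 and 1.00 in ESC, and fell by 4.48 (SE 0.85, adjusted p = 1e-04). Its other probe was above background on no XEN array and was at least 61.4-fold lower than in ESC (adjusted p = 5.9e-07). Cldn3, above background on no XEN array, averaged -7.10 in XEN, against -0.02 in ESC, and was at least 28.7-fold lower (adjusted p = 1.1e-06). Cldn7 read -2.44, -1.83 and -2.44 in XEN, against 0.08, 0.24 and -0.82 in ESC (difference -2.07 ± 0.60, adjusted p = 0.006), a call that was lost with arrays centred on their median (difference -1.38, adjusted p = 0.065) and with normexp background correction (adjusted p = 0.067). The lines differ between these groups, so line and cell type cannot be told apart.

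**Figure D3:**
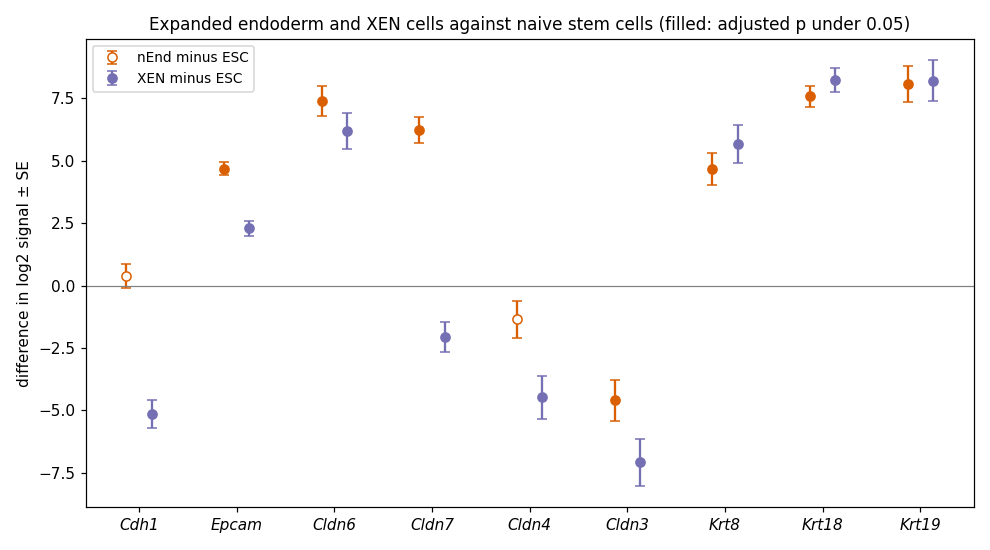
Difference in log2 signal from ESC with its standard error (vertical axis) for the 9 genes (horizontal axis), nEnd in orange and XEN in violet, filled where the adjusted p is under 0.05. The 3 keratins and Cldn6 lie between 4.67 and 8.24 in both, while Cdh1 lies at 0.38 for nEnd and -5.15 for XEN and Cldn7 at 6.22 and -2.07; Cldn3 for XEN is drawn at its measured mean, with no XEN spot above background.

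The direct comparison of nEnd with XEN called 5 of the 9 genes, all higher in nEnd, against 40.8% of all genes called and 17.3% called higher, with a median difference of 2.40, against 0.001 over all genes. Cldn7 had lowest, median and highest signals of 5.77, 6.01 and 6.42 in nEnd, against -2.44, -2.44 and -1.83 in XEN, 313-fold higher (8.29 ± 0.52, adjusted p = 1.5e-11). Cdh1 had 3.90, 4.15 and 4.62 in nEnd, against -2.50, -1.35 and -0.04 in XEN, and was higher by 5.53 ± 0.49 (adjusted p = 5.3e-09). Epcam had 2.02, 2.36 and 2.57 in nEnd, against -0.83, 0.22 and 0.36 in XEN, and was higher by 2.40 ± 0.27 (adjusted p = 1.7e-07). No nEnd array overlapped a XEN array in these genes. Line and medium differ between nEnd and XEN, so line, medium and cell type cannot be told apart.

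Cldn4 was higher in nEnd by 3.13 ± 0.73 (adjusted p = 0.0014), and its other probe, above background on no XEN array, was at least 18.6-fold higher (adjusted p = 4.8e-06). Cldn3 was above background on 2 of 6 nEnd and 0 of 3 XEN arrays and averaged -4.63 in nEnd, against -7.10 in XEN (adjusted p = 0.018). That call was lost with normexp (0.31, adjusted p = 0.64), in the series matrix (0.57, adjusted p = 0.38), with the groups alone (adjusted p = 0.086), with a replicate block (adjusted p = 0.078) and without XEN 2 or XEN 3 (adjusted p = 0.06 and 0.059). On arrays of the first scan day only, 3 of the 5 calls held, against 36.6% of all genes called, with adjusted p = 0.058 for Cldn4 and 0.14 for Cldn3. The keratins and Cldn6 did not pass: Krt8 differed by -1.01 ± 0.65 (adjusted p = 0.23), Krt18 by -0.67 ± 0.42 (adjusted p = 0.23), Krt19 by -0.14 ± 0.71 (adjusted p = 0.89) and Cldn6 by 1.21 ± 0.61 (adjusted p = 0.12). With nEnd and XEN fitted alone, Krt8 and Krt18 passed as lower in nEnd (adjusted p = 0.024 and 0.027) and Cldn6 as higher (adjusted p = 0.025), so these 3 are not shown to be alike. With a replicate block 6 of the 9 genes passed, without Cldn3 but with Cldn6 (adjusted p = 0.044) and Krt8 (adjusted p = 0.048). The share of all genes called with that block is not given here.

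Related genes were counted in nEnd against XEN beside the 17.3% of all genes called higher. Of 13 epithelial membrane and protease genes tested, 10 were higher in nEnd and 0 lower, with a median difference of 1.45, against 0.001 over all genes. Ap1m2, an epithelial clathrin adaptor subunit, averaged 2.80 in nEnd, against -6.21 in XEN with no array above background, and was at least 203-fold higher (adjusted p = 1.6e-13). The serine protease gene Tmprss2 was higher by 6.84 ± 0.72 (adjusted p = 6.6e-08). Of the tight junction genes 9 of 20 were higher and 3 lower, with Crb3, a polarity gene, higher by 4.27 ± 0.51 (adjusted p = 5e-07) and Pard3 lower by -1.05 ± 0.23 (adjusted p = 0.00097). Nectin1, an adhesion gene, was higher by 7.17 ± 0.28 (adjusted p = 2.6e-15), with 2 of 10 adherens junction genes higher and 1 lower. Of 10 other keratins, 3 were higher and 1 lower, with Krt20 higher by 3.99 ± 0.69 (adjusted p = 6.3e-05) and Krt23 lower by -3.96 ± 0.89 (adjusted p = 0.00097).

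Of 11 repressor and mesenchymal genes tested, 3 were lower in nEnd than in XEN and 0 higher. That is a smaller share than the 40.8% of all genes called, so the list as a whole did not stand out. Zeb1 read -6.35, -6.57 and -4.82 in Mid and -4.57, -4.57 and -5.23 in Late, with 3 of 6 arrays above background, against 1.47, 0.96 and 1.57 in XEN, and was lower in nEnd by -6.68 ± 0.52 (adjusted p = 5.5e-10). Zeb2 was above background on 0 of 6 nEnd and 3 of 3 XEN arrays, at -6.84 and -0.61, and was at least 17.2-fold lower in nEnd (adjusted p = 2.3e-12). Vim, the intermediate filament gene of mesenchymal cells, was lower by -7.08 ± 0.51 (adjusted p = 1.3e-10). Snai1 differed by -1.03 ± 0.44 (adjusted p = 0.064) and was above background on every array of both. Of 13 epithelial regulators tested, 7 were higher in nEnd and 1 lower, against 17.3% of all genes called higher. Esrp1 was higher in nEnd by 3.38 ± 0.41 (adjusted p = 5.6e-07) and Grhl2 lower by -1.79 ± 0.56 (adjusted p = 0.013). Against ESC, XEN were at least 18.6-fold higher in Zeb2 (adjusted p = 1.6e-11) and differed in Zeb1 by 0.13 ± 0.60 (adjusted p = 0.88).

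**Figure D4:**
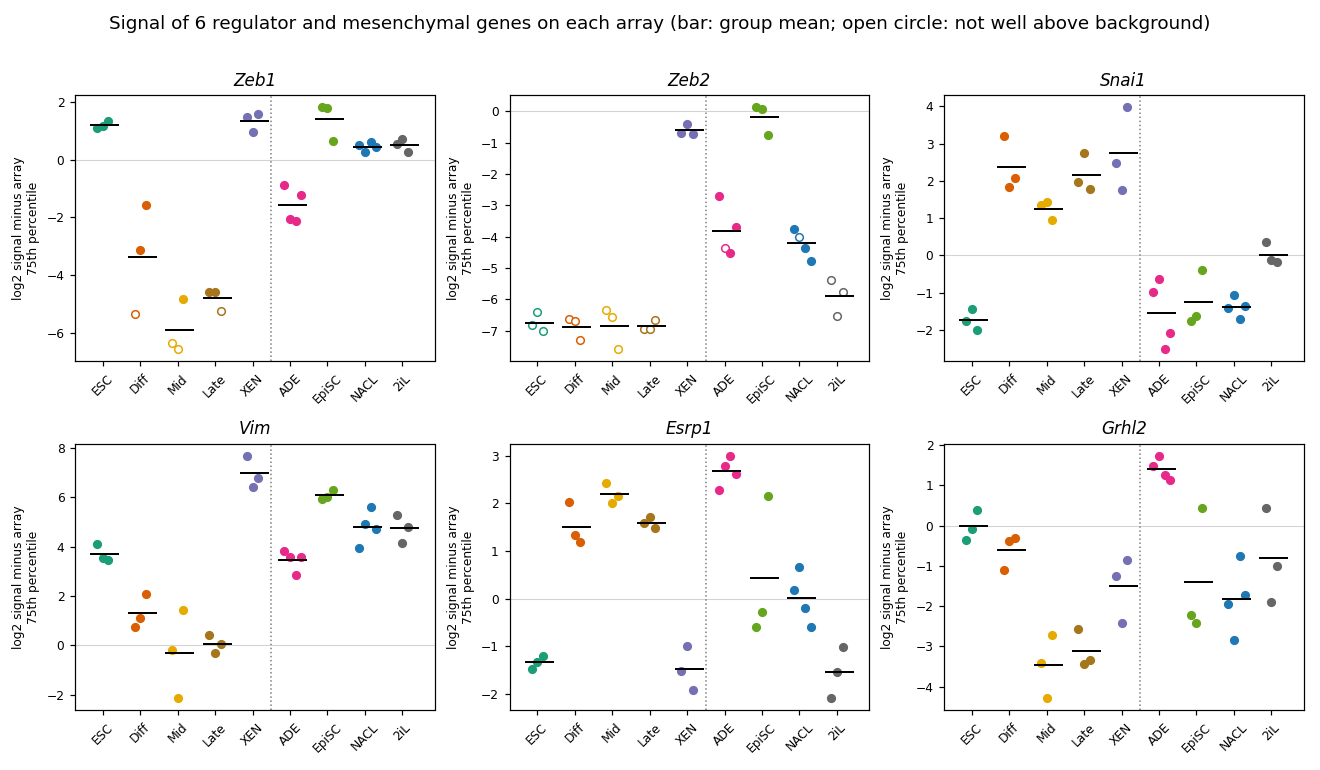
Log2 signal relative to the array's 75th percentile (vertical axes) of 4 repressor or mesenchymal genes and of Esrp1 and Grhl2 on each array, by group (horizontal axes), with a bar at the group mean and open circles for spots not well above background. Zeb2 is filled on all XEN and EpiSC arrays, with means of -0.61 and -0.19, and open on all ESC, Diff, Mid, Late and 2iL arrays.

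In the second array set, ADE cells were higher than EpiSC in Cdh1, Cldn6, Cldn7, Krt8 and Krt18. In ADE against EpiSC, 6 of the 9 genes passed, 5 higher and Cldn3 lower, against 37.9% of all genes called and 16.7% called higher, with a median difference of 2.24, against -0.064 over all genes. Cdh1 read 4.42, 4.5, 4.84 and 4.58 in ADE, against 1.17, 1.18 and 4.18 in EpiSC, and rose by 2.41 ± 0.53 (adjusted p = 9e-04). Cldn6 read 3.67, 3.51, 3.71 and 3.65 in ADE, against -1.02, -0.92 and 2.04 in EpiSC, and rose by 3.60 ± 0.66 (adjusted p = 0.00014). Krt18 read 8.11, 8.19, 9.11 and 8.27 in ADE, against 5.11, 5.26 and 7.89 in EpiSC, and rose by 2.33 ± 0.46 (adjusted p = 0.00028). No ADE array overlapped an EpiSC array in these 3 genes, though the third EpiSC array came close in Cdh1 and Krt18.

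Krt8 read 5.82, 5.56, 6.95 and 4.57 in ADE, against 0.51, 2.06 and 5.21 in EpiSC (3.13 ± 0.70, adjusted p = 0.001), and Cldn7 read 3.95, 4.40, 4.53 and 4.5 in ADE, against 1.07, 0.84 and 4.42 in EpiSC (2.24 ± 0.56, adjusted p = 0.0029). Both overlapped, through the third EpiSC array, and neither passed with the groups fitted alone (adjusted p = 0.059 for Krt8 and 0.072 for Cldn7). Cldn3 fell by 3.08 (SE 0.89, adjusted p = 0.0078), and Epcam (0.35 ± 0.29, adjusted p = 0.38), Cldn4 (-0.34 ± 0.79, adjusted p = 0.79) and Krt19 (-0.76 ± 0.76, adjusted p = 0.49) did not pass. Krt19 read 1.89, 1.74, 4.52 and 2.97 in ADE, against 2.38, 2.51 and 5.73 in EpiSC. Where only the arrays of slide 6 were used (2 of ADE and 2 of EpiSC), 0 of the 9 genes passed limma's adjusted test, 1 had an unadjusted p under 0.05, 3183 of all genes passed, and differences kept their sign in the 6 genes, at 2.03 for Cdh1 and 3.12 for Cldn6. Slide 5 held 2 ADE arrays and 1 EpiSC array, so EpiSC had no spread of its own there. How many of the 9 genes passed is not given for it.

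One array stood apart. The third EpiSC array was the highest of its group in all 9 genes, and it also read highest for Esrp1 (2.15, against -0.59 and -0.29 on the other EpiSC arrays) and Grhl2 (0.43, against -2.21 and -2.43) and lowest for Zeb1 (0.63, against 1.82 and 1.80). It was also the highest for Snai1 (-0.38, against -1.76 and -1.63) and for the mesenchymal gene Vim (6.31, against 5.93 and 6). It was the lowest for Zeb2 (-0.77, against 0.13 and 0.07) and Snai2 (-0.83, against -0.09 and -0.01). The same held for Twist1 (-0.86, against -0.32 and -0.24) and Cdh2 (2.27, against 3.69 and 3.93). Its summed level of fibroblast genes was the lowest as well (14.9, against 22.8 and 23.1). Its correlation with the other EpiSC arrays was 0.969 and 0.975, against 0.988 between those. Without it, Cdh1 rose by 3.41, Cldn7 by 3.39 and Krt8 by 4.44 in ADE over EpiSC (adjusted p no higher than 2.3e-06), and Cldn3 no longer passed (-2.14, adjusted p = 0.085).

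Markers of other cells moved with these groups as well. Fibroblast genes had a summed level of 3.35 to 15.8 times the array's 75th percentile in ADE, with 3 to 6 of 7 genes above background, against 14.9 to 23.1 in EpiSC, with 6 to 7 of 7, and 1.56 to 2.53 in 2iL. Col1a1 averaged -3.26 in ADE, against 2.10 in EpiSC, and Lum was above background on 0 of 4 ADE and 2 of 3 EpiSC arrays. Trophectoderm genes summed to 32.5 to 45 in ADE, against 5.39 to 5.73 in EpiSC, with Cdx2 at -3.10 in ADE, against -0.28 in EpiSC, and Elf5 above background on all 4 ADE and no EpiSC array. Surface ectoderm genes summed to 3.34 to 4.21 in ADE, against 2.89 to 3.56 in EpiSC. The part of such cells in these results was not tested.

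**Figure D5:**
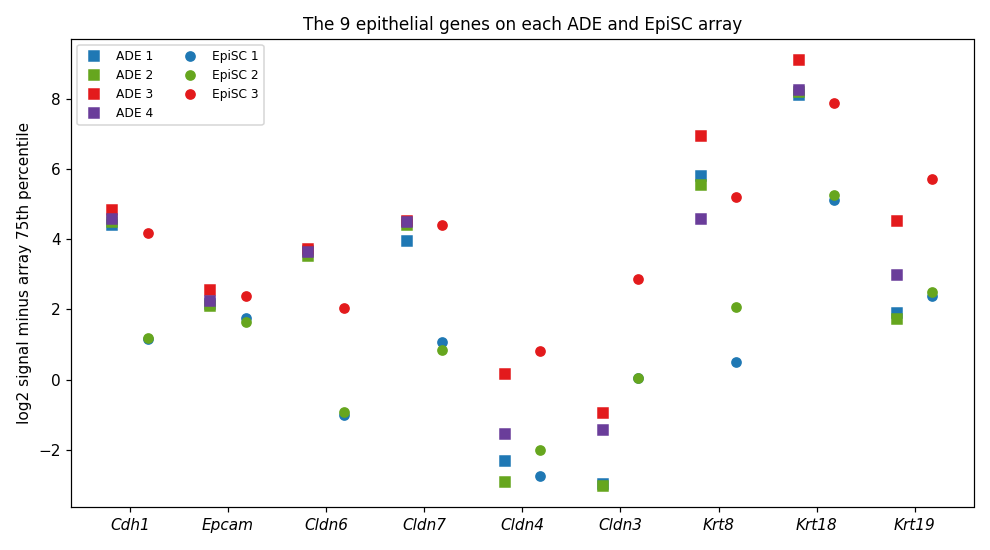
Log2 signal relative to the array's 75th percentile (vertical axis) of the 9 genes (horizontal axis) on the 4 ADE arrays (squares) and the 3 EpiSC arrays (circles), with a colour per replicate. The red circle of EpiSC 3 is the highest EpiSC value for every gene, as in Krt8, where it reads 5.21 beside 0.51 and 2.06.

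Lists of repressors and regulators were counted in ADE against EpiSC beside 37.9% of all genes called. Of 11 repressor and mesenchymal genes tested, 0 rose and 8 fell in ADE against EpiSC, with a median difference of -1.65, against the all-gene value above: Zeb2 fell by 3.63 (SE 0.38, adjusted p = 9.2e-08) and Zeb1 by 2.98 (SE 0.56, adjusted p = 0.00017). Of 13 epithelial regulators 8 rose and 1 fell, among them Ovol2 by 2.86 ± 0.20 (adjusted p = 3.1e-10) and Grhl2 by 2.80 ± 0.61 (adjusted p = 0.00074). Of 20 tight junction genes 10 rose and 1 fell, and Cldn8 was above background on all 4 ADE and no EpiSC array and at least 8.78-fold higher (-2.00 in ADE, against -7.30 in EpiSC, adjusted p = 4.9e-10). Vil1, an organiser of microvilli, rose by 5.06 ± 0.38 (adjusted p = 7.9e-10).

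Primed EpiSC differed from naive 2iL cells in 6 of the 9 genes, 5 higher and 1 lower, against 42.1% of all genes called and 21.2% called higher. The median difference was 1.82, against -0.036 over all genes. The lines differ between EpiSC and 2iL, so line and cell state cannot be told apart. Krt19 read 2.38, 2.51 and 5.73 in EpiSC, against -2.48, -3.63 and -3.04 in 2iL, and was higher by 6.59 ± 0.82 (adjusted p = 7.3e-07). Krt18 was higher by 3.96 ± 0.49 (adjusted p = 7.1e-07), with 5.11, 5.26 and 7.89 in EpiSC, against 1.74, 1.79 and 2.85 in 2iL. Epcam read 1.75, 1.64 and 2.37 in EpiSC, against -0.42, -0.29 and -0.37 in 2iL, and was higher by 2.28 ± 0.31 (adjusted p = 2.5e-06). None of these 3 genes overlapped between the groups.

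Cdh1 was lower in EpiSC by -2.01 ± 0.57 (adjusted p = 0.0064), reading 1.17, 1.18 and 4.18, against 3.48, 4.56 and 4.5 in 2iL, and by -3.01 without the third EpiSC array (adjusted p = 1.1e-05). That call was lost without EpiSC 1 (-1.50, adjusted p = 0.056) or EpiSC 2 (-1.51, adjusted p = 0.055). Cldn6 was higher by 2.67 ± 0.71 (adjusted p = 0.0039) with overlap, and by 1.66 without EpiSC 3 (adjusted p = 0.049), and did not pass with the groups alone (adjusted p = 0.11), on slide 5 (1.34, adjusted p = 0.42) or on slide 6 (3.74, adjusted p = 0.12). Cldn7 was higher by 1.79 ± 0.60 (adjusted p = 0.019), which was 0.64 without EpiSC 3 (adjusted p = 0.24) and 1.33 without 2iL 1 (adjusted p = 0.12). Krt8 differed by 1.82 ± 0.75 (adjusted p = 0.055), passed without EpiSC 1 (2.86, adjusted p = 0.0025) or 2iL 3 (2.15, adjusted p = 0.048), and was 0.52 without EpiSC 3 (adjusted p = 0.54). Fitted alone, the groups gave 3 calls, against 35.5% of all genes called, and on slide 6 alone 2, against 18.9%. Of the repressor and mesenchymal genes 6 of 11 were higher in EpiSC and 3 lower, with Zeb2 at least 25.1-fold higher (-0.19 in EpiSC, against -5.90 in 2iL, adjusted p = 1.5e-10), beside the fibroblast genes named above. With ESC as the naive group, labelled HRHnG and measured in the first array set, 7 of the 9 genes passed and Cdh1 differed by -1.67 (adjusted p = 0.02). The share of all genes called in that setting is not given here.

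The 2 routes to endoderm were compared by the difference of their differences, each taken within an array set. It passed for 5 of the 9 genes, all with the larger rise in Diff over ESC, against 36.6% of all genes called and 21% called higher. Krt19 differed by 5.12 ± 1.12 (4.37 for Diff over ESC, against -0.76 for ADE over EpiSC, adjusted p = 9e-04), Epcam by 4.60 ± 0.42 (4.95 against 0.35, adjusted p = 2.1e-08) and Krt18 by 4.11 ± 0.67 (6.44 against 2.33, adjusted p = 4.2e-05). Cldn7 differed by 3.12 ± 0.83 (5.35 against 2.24, adjusted p = 0.0047) and Cldn6 by 3.07 ± 0.97 (6.67 against 3.60, adjusted p = 0.016), the last lost in 6 other settings or left-out arrays, including without the third EpiSC array (2.06, adjusted p = 0.066) and without ESC 2 (2.48, adjusted p = 0.058). Without the third EpiSC array, Cldn7 differed by 1.96 (adjusted p = 0.0067). Krt8 rose on both routes, with a difference between them of 0.36 ± 1.03 (adjusted p = 0.82). Cdh1 differed by -1.63 ± 0.78 (adjusted p = 0.11), and by -2.63 without the third EpiSC array (adjusted p = 0.0011).

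Stem cells adapted to NACL medium were set against 2iL cells, a comparison in which 3 of 6 primitive endoderm genes listed were called higher. In NACL against 2iL, 0 of the 9 genes passed limma's adjusted test and 1, Krt19, had an unadjusted p under 0.05, against 8.55% of all genes called. With so small a share, 0 of 9 is not read as a lack of change in these genes. Krt19 had the largest difference, 1.98 ± 0.76 (adjusted p = 0.12), reading -2.89, 0.19, -0.21 and -1.39 in NACL, against -2.48, -3.63 and -3.04 in 2iL. Without the first NACL array it passed (2.58, adjusted p = 0.037). Cell lines pair these groups, and with the line as a block 0 of the 9 genes passed and 0 had an unadjusted p under 0.05. The naive groups of the 2 array sets, which differ in line and set, gave 2 calls of 9 for ESC against 2iL, both lower, against 10.1% of all genes called and 7.42% called lower: Epcam by -2.01 ± 0.31 (adjusted p = 0.00044) and Krt18 by -1.90 ± 0.49 (adjusted p = 0.017), the last lost without ESC 1, ESC 3 or 2iL 3 (adjusted p = 0.051, 0.053 and 0.073). Line and set cannot be told apart there, and differences of that size between levels in the 2 sets carry no direction here.

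Over the 9 group means the genes' patterns were set side by side, as a description over points that share lines and array sets. Krt8, Krt18, Krt19 and Cldn6 ran together, with Pearson correlations of 0.88 to 0.96. Cdh1 correlated with Cldn4 at 0.76 and Cldn7 at 0.68, and with the 3 keratins at -0.25 to -0.37. Epcam stood between, at 0.83 with Cldn6 and 0.82 with Cldn7. Among regulators, Zeb1 ran against Cldn7 (-0.90), Zeb2 against Cdh1 (-0.78) and Esrp1 with Cldn7 (0.91). Repressors also ran with the genes, Snai2 with Cldn3 (0.92) and Snai1 with the 3 keratins and Cldn6 (0.57 to 0.62). The gene tested whose group means were most like each one's was Stard10 for Krt8 (0.995), Nedd9 for Cldn6 (0.994), Snrk for Krt18 (0.986), Snx33 for Krt19 (0.986), Hspa1a for Cldn7 (0.985), 9330133O14Rik for Epcam (0.984), Slc7a3 for Cldn3 (0.982), Vps9d1 for Cdh1 (0.978) and Pgap6 for Cldn4 (0.97).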

How the data were processed

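RNA was hybridised to single-colour Agilent arrays read in Cy3. The deposited values are the intensity of each spot after background correction by Agilent Feature Extraction, version 11.0.1.1 for the first array set and 12.0.1.1 for the second per the file headers, and 9.1 per the submitters' processing notes. The header build is mm9. The authors' deposited series matrix holds log2 values of the same arrays, whose scale and centring are not given in the sources used here, with medians between 5.94 and 5.949. It holds no probe of Cldn7 or Krt8 and was used as an alternative.

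Irregular spots (132 to 243 of 59305) were left out, spots of a probe averaged, and the log2 intensity centred on each array's 75th percentile. Of 55681 probes, 27630 had 1 symbol, 33 several and 28018 none. The probe with the highest mean stood for its gene, and a gene was tested where some group had it well above background on every array. One limma model (version 3.58.1, R 4.3.3) of 9 group means was fitted, with Benjamini-Hochberg adjustment over 16324 genes and a threshold of 0.05. "At least" folds use the lowest signal well above background on each array. On simulated data for Diff minus ESC, with 16324 genes, the model recovered 78% of genes changed by 2 on the log2 scale.

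The 9 genes and the related lists were chosen with earlier results of these data known. Related genes named are the Snai, Zeb, Twist1, Grhl2, Ovol and Esrp regulators and, of each list, up to 2 called in each direction with the largest difference. Replicate numbers were taken to pair Mid with Late, as each nEnd replicate is a separate set of differentiations. Same-numbered Mid and Late arrays correlated at 0.22, 0.13 and 0.14, which does not settle the pairing. Lines pair NACL with 2iL. Alternatives were normexp (on median signals, since the files used here give no mean signal), other centring and normalization, filters, blocks, the groups alone and leaving out each array.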

Additional observations from a re-analysis of the deposited data

Results flagged for a closer look

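Krt18 on the third ADE array read 9.11, against 8.11, 8.19 and 8.27 on the other ADE arrays, a gap of 0.84 of the group's range. It was 1 of 18 tests, each of 1 gene in the 4 ADE or the 4 NACL arrays, and chance gives about 1 in 20.

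The rise in Diff over ESC differed from that in ADE over EpiSC by the tested difference of differences for 5 genes: Epcam by 4.60, Cldn6 by 3.07, Cldn7 by 3.12, Krt18 by 4.11 and Krt19 by 5.12 on the log2 scale.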

How the results depend on the processing

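Of 1994 values of single genes under other settings, 1852 kept their direction and side of the threshold, 36 newly passed, 55 no longer passed and 51 changed sign, 0 of which passed in either setting. With arrays left out one at a time, the number of the 9 genes called ran from 6 to 6 for Diff against ESC, 1 to 2 for Mid against Diff, 0 to 0 for Late against Mid, 7 to 7 for nEnd against ESC, 4 to 5 for nEnd against XEN, 9 to 9 for XEN against ESC, 5 to 6 for ADE against EpiSC, 5 to 7 for EpiSC against 2iL, 0 to 1 for NACL against 2iL, 1 to 2 for ESC against 2iL and 4 to 5 for the difference of differences.

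The counts with arrays left out are given without shares of all genes. Mid against Diff gave 1 gene with normexp, with no filter, with the groups alone and with a replicate block. Of all genes, 25.1%, 20.9%, 16.7% and 11.8% were called in these settings in that order. EpiSC against 2iL gave 3 with the groups alone, against 35.5% of all genes called. Settings chosen after seeing the data were slide or scan day as a fixed block, the first scan day only and slide 5 or 6 only. In these, nEnd against XEN gave 3 on the first scan day (36.6% of all genes called). On slide 6, ADE against EpiSC gave 0 (19.5% of all genes) and EpiSC against 2iL 2 (18.9%). ESC against 2iL gave 1 with slide as a fixed block (5.64% of all genes) and 1 on the first scan day (8.28%). The cause was not tested. With a replicate block, the counts were 9 for Diff against ESC, 8 for nEnd against ESC, 6 for nEnd against XEN, 9 for XEN against ESC, 5 for ADE against EpiSC, 0 for Late against Mid, 0 for NACL against 2iL and 6 for the difference of differences. Calls over all genes with that block are given below for Late against Mid and NACL against 2iL. For the others they are not given, so those counts are not read against a background. The correlations cannot decide whether these numbers pair cultures. Same-numbered arrays correlated at 0.25, 0.08 and 0.12 for Late with ESC and at 0.31, -0.12 and 0.31 for ADE with EpiSC. For Mid with Late the values were 0.22, 0.13 and 0.14. There, both arrays numbered 1 lay on slide 1 and both numbered 2 on slide 3, so slide and pairing cannot be told apart for them.

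The changes of sign concern 19 differences, none above 0.81 in size as reported. With slide as a fixed block, Mid minus Diff was 0.19 for Epcam and -0.19 for Cldn4, Late minus Mid 0.03 for Cldn4, EpiSC minus 2iL -0.06 for Cldn3 and ESC minus 2iL -0.30 for Cldn4. On the first scan day, Mid minus Diff was 0.00 for Epcam and -0.07 for Cldn4, Late minus Mid 0.34 for Cldn3, 0.17 for Cldn4 and 0.20 for Krt8, nEnd minus XEN 0.13 for Krt19 and ESC minus 2iL 0.14 for Krt8. With quantile normalization, Late minus Mid was -0.01 for Cldn7 and nEnd minus XEN 0.23 for Krt19, which was 0.26 in the series matrix. On slide 5, ADE minus EpiSC was 0.11 for Cldn4, EpiSC minus 2iL -0.28 for Cldn3, and NACL minus 2iL -0.01 for Epcam, 0.40 for Cldn4 and -0.08 for Cldn6. On slide 6, EpiSC minus 2iL was -0.13 for Cldn3, and NACL minus 2iL -0.42 for Cldn7 and -0.39 for Krt18. With a replicate block, NACL minus 2iL was -0.01 for Epcam and 0.02 for Cldn4, and the difference of differences -0.02 for Krt8. With arrays left out one at a time, Mid minus Diff ran from -0.18 to 0.04 for Epcam, Late minus Mid from -1.90 to 0.41 for Cldn3, -0.80 to 0.17 for Cldn4, -0.37 to 0.20 for Krt8 and -0.16 to 0.16 for Krt18, and nEnd minus XEN from -0.47 to 0.10 for Krt19. ADE minus EpiSC ran from -1.05 to 0.72 for Cldn4 and -1.34 to 0.34 for Krt19, EpiSC minus 2iL from -0.70 to 0.71 for Cldn3, and ESC minus 2iL from -0.53 to 0.14 for Krt8. NACL minus 2iL ran from -0.01 to 0.40 for Epcam, -0.64 to 0.09 for Cldn4 and -0.29 to 1.24 for Cldn6, and the difference of differences from -0.94 to 1.40 for Krt8. The cause of these changes was not tested.

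Over all genes, Mid against Diff called 4722, against 2950 with median centring, 2724 with the groups alone and 1926 with a replicate block. Late against Mid called 1142, against 391 with median centring, 265 with the groups alone and 0 with a replicate block. ADE against EpiSC called 6186, against 2451 and 3183 on slides 5 and 6, and EpiSC against 2iL 6869, against 3449 and 3086. NACL against 2iL called 1395, against 868 with median centring, 446 with the groups alone, 333 with a replicate block, 236 with lines as a block and 560 and 117 on slides 5 and 6. ESC against 2iL called 1642, against 948 with median centring, 533 with the groups alone, 1036 with slide as a random block and 920 as a fixed one. Median centring shifted the median difference of all genes to 0.303 for Diff against ESC, 0.213 for nEnd against ESC, -0.391 for nEnd against XEN, 0.664 for XEN against ESC, -0.025 for Late against Mid, 0.091 for EpiSC against 2iL, -0.294 for ESC against 2iL and 0.423 for the difference of differences. Spots not above background carry only a bound.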
